A study of Homo sapiens with 18 samples.

Results

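Cytosolic ribosomal protein genes encode the protein parts of the ribosome, the particle that translates mRNA in the cytosol. They were chosen by symbol, as every gene of the deposited table named RPL or RPS with a number (with or without A, X, Y or L after it) together with RPLP0, RPLP1, RPLP2 and RPSA, at 1 RPKM or more in at least 3 of 18 libraries. RPKM is the number of reads per kilobase of transcript, scaled to the mapped reads of the library. Of 26443 genes in the table, 86 matched by name and 83 of these reached that level. The 83 comprised 31 proteins of the small subunit, 43 of the large subunit, the 3 acidic stalk proteins and 6 paralogs. The 3 genes that missed the level were all paralogs (RPL3L, RPL39L and RPS4Y2), and RPL3L never exceeded 0.201 RPKM. RPL7 stood just inside, with 1 RPKM or more in exactly 3 libraries and a highest value of 1.97 RPKM.

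The RNA came from LNCaP, a line derived from a human prostate carcinoma metastasis. Each of the 6 groups had 3 libraries. Cells carried the lentiviral control vector pGIPZ (control), an shRNA against HIF1A (shHIF1A), an shRNA against FOXA1 (shFOXA1) or both shRNAs (shFOXA1 + shHIF1A) for 5 days, and the control and shFOXA1 cells were also tested with KC7F2, an inhibitor of HIF1A, at 40 µM for 24 h. The cells of all 18 libraries, controls included, received 100 µM CoCl2 for 24 h to imitate hypoxia, so no library shows these cells without that agent. All data are from 1 line, and the number of shRNA sequences per gene, the vehicle of KC7F2 and any second vector in cells with a single shRNA are not stated in the labels. The labels do not say whether the 3 libraries of a group came from separate cultures, so a p-value here measures the spread between these libraries, which may be technical. Prostate markers were present in every library: KLK3 lay between 267 and 958 RPKM, KRT8 lay between 134 and 263, and TMPRSS2 did not fall below 39.6.

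A ribosome needs its proteins in nearly equal numbers, and cells in which growth is limited hold back the whole set together. The mRNAs of most ribosomal proteins begin with an unbroken run of pyrimidines (C and T, or U in RNA), the terminal oligopyrimidine or TOP motif, through which the kinase mTOR and the RNA-binding protein LARP1 control their translation and stability. Hypoxia is known to restrain mTOR, and HIF1A, the oxygen-regulated subunit of the hypoxia factor, is itself made through a pathway that mTOR drives. FOXA1 is a pioneer transcription factor that opens chromatin in prostate cells.

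The TOP run could be seen in the start sites of the members. RefSeq (GRCh38.p14) promoter windows were available for 69 of the 86 named genes. In 48 of the 69 (69.6%) the annotated first base was a C followed by at least 4 more C or T, against 5.14% of 27305 genes and 12.9% of 295 other genes of at least 100 RPKM. The following stretches run from 20 bases before the annotated first base to its 20th base, written 5′ to 3′ on the gene's strand, with the pyrimidine run around the first base in capitals. The first 8 are from genes that carry the results below or lead the set in level, whether or not they have the run, and the last 8 pair parent genes with their paralogs.
RPL24: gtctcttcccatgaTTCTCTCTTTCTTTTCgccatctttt
RPL12: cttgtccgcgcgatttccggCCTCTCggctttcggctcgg
RPL27: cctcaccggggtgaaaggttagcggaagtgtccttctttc
RPL28: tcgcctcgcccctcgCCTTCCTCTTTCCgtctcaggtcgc
RPL32: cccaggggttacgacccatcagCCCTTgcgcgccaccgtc
RPL37A: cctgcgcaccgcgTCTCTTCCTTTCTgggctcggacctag
RPS6: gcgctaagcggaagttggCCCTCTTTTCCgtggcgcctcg
RPLP2: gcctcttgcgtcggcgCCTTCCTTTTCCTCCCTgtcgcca
RPS27: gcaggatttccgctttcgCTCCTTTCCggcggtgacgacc
RPS27L: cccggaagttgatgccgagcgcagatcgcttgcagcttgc
RPL26: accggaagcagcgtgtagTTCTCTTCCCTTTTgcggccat
RPL26L1: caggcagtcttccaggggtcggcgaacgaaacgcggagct
RPL22: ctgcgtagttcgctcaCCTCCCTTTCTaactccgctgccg
RPL22L1: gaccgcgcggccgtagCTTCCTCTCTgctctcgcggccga
RPS4X: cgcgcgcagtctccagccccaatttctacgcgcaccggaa
RPS4Y1: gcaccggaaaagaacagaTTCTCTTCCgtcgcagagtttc

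These stretches lie at chr3:101686699-101686738 for RPL24 and chr9:127451387-127451426 for RPL12, both on the minus strand. RPS27L starts within chr15:63157458-63157497 on the minus strand, and its parent RPS27 within chr1:153990742-153990781 on the plus strand. The run was longest in RPLP2 and RPL24 among those printed, with 17 and 16 bases. RPS27L and RPL26L1 had no such run where their parents had 9 and 14 bases, whereas RPL22L1 had a run of 10 bases and RPL22 one of 11. In the last pair the parent RPS4X had no run and the Y-linked paralog had one of 9 bases. RPL27, which fell after HIF1A knockdown, had no run at its annotated start, and in RPL32 a run of 5 bases began only after the annotated first base. Over the 7 paralogs with a window, 2 had the run (28.6%), against 46 of the 62 other members (74.2%). A match or its absence describes these letters at annotated starts and is no measurement of translation. Of the 3 annotated starts of RPL32 and the 2 of RPL26L1, 1 each is printed. Both strands of the window from 250 bases before to 50 after each start were also searched for single words. A gene counted if any of its windows held the word. CCGGAAG, the letters of an ETS site, stood in 34.8% of the 69, in 12.2% of all 27305 genes and in 26.1% of the 295 other genes of at least 100 RPKM. The HIF core ACGTG stood in 31.9% of the 69, above the 24.9% of all 27305 genes and below the 36.3% of those 295 genes. It is also part of the E-box CACGTG, which stood in 7.25%, against 8.78% and 13.6%. The forkhead word TGTTTAC stood in none of the 69, against 4.19% and 2.71%.

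Levels spread over more than 3 orders of magnitude. The median member averaged 295 RPKM over the 18 libraries, against 7.49 RPKM for all 12900 genes tested, and 61 of the 83 averaged at least 100 RPKM. RPL37A (2259 RPKM) of the large subunit led, followed by RPS6 (1758), the small-subunit protein phosphorylated by S6 kinase. RPL7 (0.716 RPKM), RPL36A (1.82) and RPL21 (1.91) stood lowest, although each encodes a core protein of the large subunit. Ribosomal protein genes have many processed pseudogenes, and the treatment of reads that match several places is not stated in the labels. The share of each gene's own 50-base stretches found in a transcript of another gene (GENCODE 29) was therefore counted. It reached 90.3% in RPL17, 87.3% in RPL9, 85.6% in RPS10, 84.3% in RPS3A and 80.3% in RPL36A, all below 25 RPKM. Across these genes pseudogenes shared between 68.6% (RPL9) and 83.4% (RPS3A). Genes other than pseudogenes counted too: the largest sharer was RPL17-C18orf32 for RPL17 (87.1%), RPS10-NUDT3 for RPS10 (75.1%) and RPL36A-HNRNPH2 for RPL36A (74.7%). The 17 members with at least 60% shared had a median level of 58.8 RPKM, and the 21 with under 10% a median of 759 RPKM. Across the 83 members level and shared percentage had a Spearman rho of -0.42, a description over genes that share libraries. Low values of such genes may leave out reads and are uncertain as levels, and fold changes of RPL9, RPL17, RPS3A, RPS10 and RPL36A carry the same doubt. Genes named below for their falls are not free of it, with 69.4% shared in RPS2, 56.5% in RPL12 and 45.1% in RPL24. In RPL27 the share was 3.51%.

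**Figure D1:**
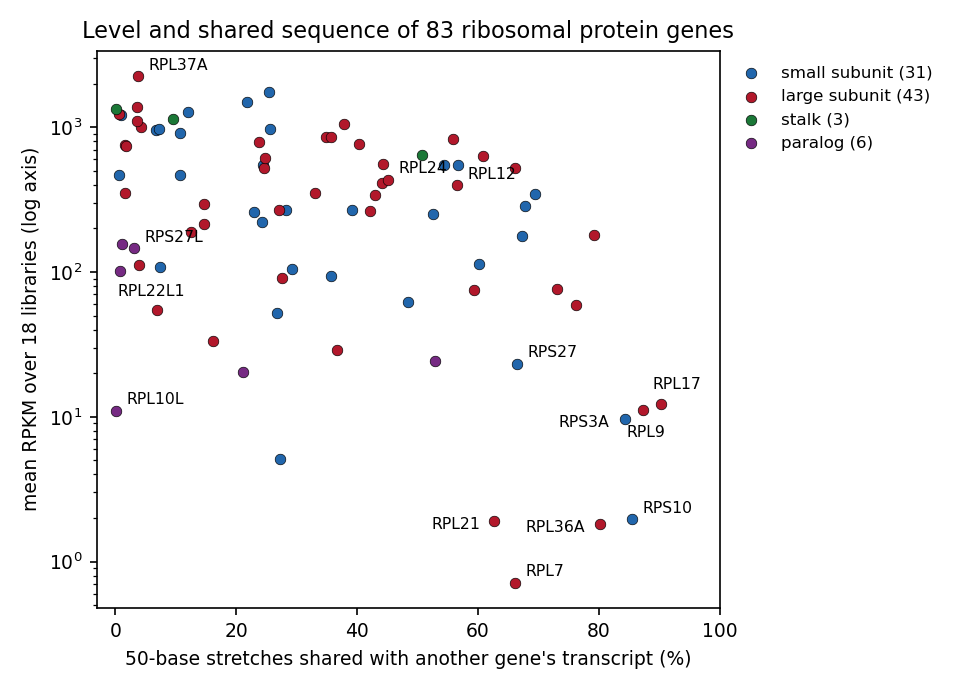
Mean RPKM over 18 libraries (vertical, log axis) against the percentage of a gene's 50-base stretches that also occur in another gene's transcript, 1 point per gene, coloured by role. RPL7, RPL36A, RPL21 and RPS10 lie below 2 RPKM at 62.7% or more shared, whereas RPL10L (11.01 RPKM) is low with 0.13% shared.

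Each labelled target was lower than control in the cells with its shRNA alone. FOXA1 was at 71.6, 114 and 107 RPKM in control and 35.1, 32.4 and 34.8 in shFOXA1, and HIF1A at 13.96, 27.3 and 28.0 in control and 3.06, 4.28 and 3.33 in shHIF1A. In shFOXA1 + shHIF1A, FOXA1 stood at 70.7, 63.5 and 59.3 RPKM, so its depletion there was smaller than in shFOXA1 (log2 difference 0.91 ± 0.16 SE), and HIF1A stood at 4.33, 4.07 and 4.56. HIF1A was higher in shFOXA1 than in control, at 88.6, 81.6 and 99.5 RPKM. Depth recovered from the spacing of the lowest values was 3.26 to 12.1 per library, in units of 1e6 reads.

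Short genes read high in 3 libraries, and ribosomal protein mRNAs are short, with a median transcript length of 687 bases against 1672 for tested genes. The shortest 25% of genes (under 893 bases) exceeded the longest 25% (over 2877 bases) by a log2 median of 0.32 in control 1, 0.29 in control + KC7F2 1 and 0.22 in control + KC7F2 3, and by -0.15 to 0.02 in the other 15 libraries. The members' medians, each gene relative to its own mean over 18 libraries on the log2 scale, were also highest there: 0.81 in control 1, 0.59 in control + KC7F2 1 and 0.51 in control + KC7F2 3. Controls 2 and 3 stood at 0.33 and 0.07. Every shHIF1A library was below them (-0.06, -0.23 and -0.34), as was every shFOXA1 + shHIF1A library (-0.16, -0.36 and -0.37) and every shFOXA1 + KC7F2 library (-0.30, -0.42 and -0.17). The shFOXA1 libraries (0.00, 0.10 and -0.13) overlapped control 3, and control + KC7F2 2 stood at 0.16. With each library's trend on transcript length removed, fitted on genes that are not members, the controls stood at 0.65, 0.28 and 0.18 and shHIF1A at -0.15, -0.28 and -0.34. The gap between these groups remained after the trend was taken out, and control 1 stayed the highest library. Control + KC7F2 1 and 3 came next at 0.41 and 0.38, so the 3 libraries with high short genes still led. How much of their signal the removal left in the members was not tested.

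**Figure D2:**
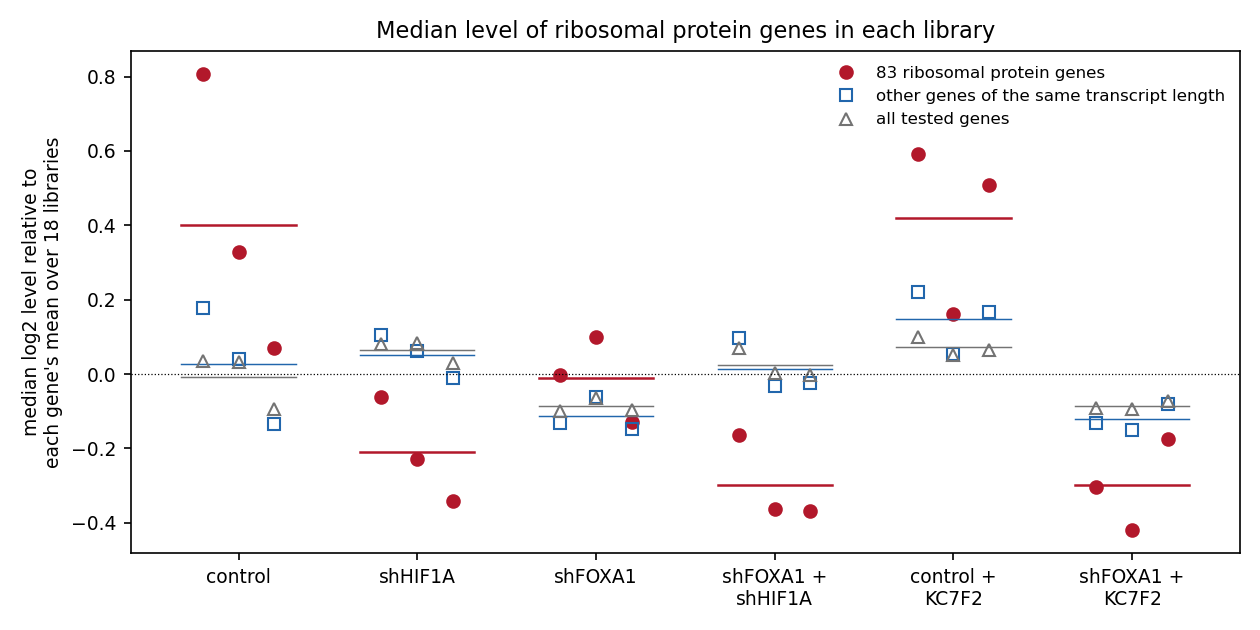
Median log2 level of the 83 genes (filled circles), of other genes in the same range of transcript length (squares) and of all tested genes (triangles) in each of 18 libraries, relative to each gene's mean over all libraries; lines are means of 3 libraries. The squares move between -0.15 and 0.22, while the circles run from -0.42 in shFOXA1 + KC7F2 to 0.81 in control.

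As a share of each library's RPKM sum, the members took 18.7, 15.5 and 14.4% in control, and 12.1, 11.4 and 10.98% in shHIF1A. The share was 13.8, 14.5 and 12.8% in shFOXA1, 11.2, 11.1 and 10.96% in shFOXA1 + shHIF1A, 16.8, 14.3 and 16.5% in control + KC7F2 and 11.7, 11.1 and 12.7% in shFOXA1 + KC7F2. Control and control + KC7F2 overlapped, and shHIF1A lay below both without overlap. These are proportions of RNA in bulk cultures: fewer cells of a kind and less RNA per cell cannot be told apart.

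HIF1A knockdown in control cells lowered most ribosomal protein mRNAs. Of the 83 members 56 fell and 1 rose at an adjusted p below 0.05 (limma on log2(RPKM + 0.5), 1 fit over 12900 genes), against a background in which 16.1% of genes fell and 25.9% rose. The members' median log2 fold change was -0.60, with 80 of 83 negative, and the median over all genes was 0.07. In 52 members all 3 shHIF1A libraries lay below all 3 controls, as in 18.4% of all genes. Of the 21 members with under 10% of their 50-base stretches shared, 16 fell and 1 rose (median -0.60). Mitochondrial ribosomal protein genes, which encode a different ribosome and have a median length of 1035 bases, had 23 of 77 fallen and a median of -0.26. Nuclear genes of the respiratory chain, of a like length (median 703 bases), had 15 of 79 fallen and a median of -0.18.

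**Figure D3:**
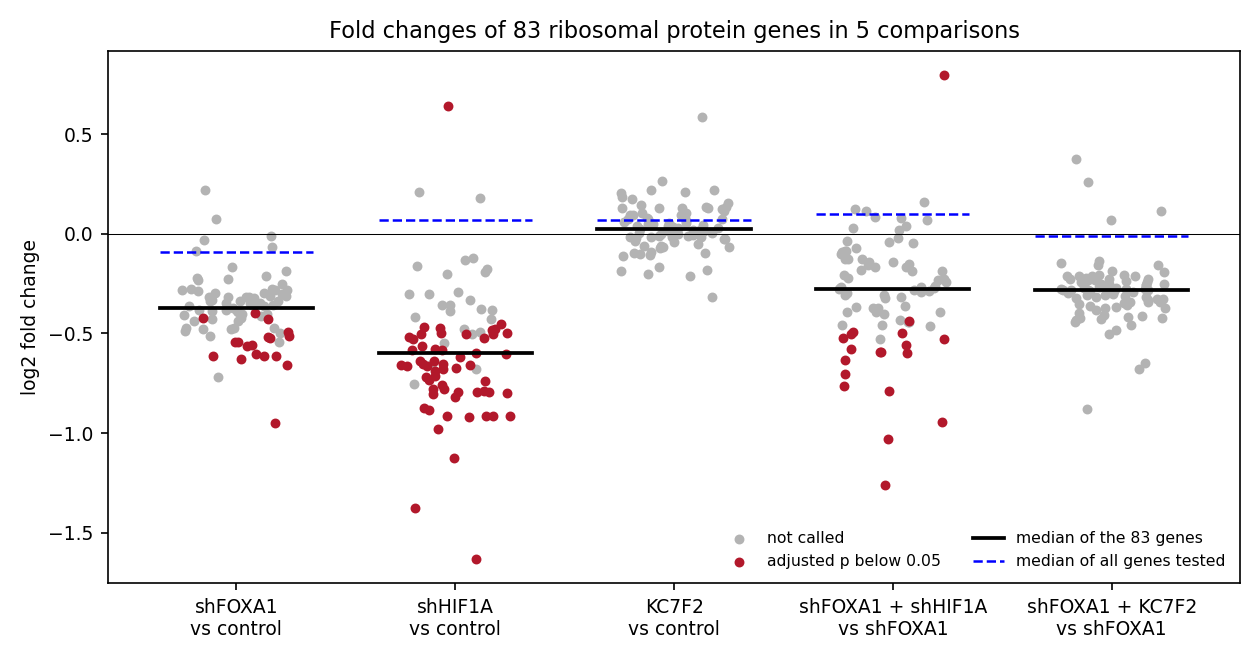
Log2 fold change of each of the 83 genes (points, spread sideways at random) in 5 comparisons, red where the adjusted p was below 0.05, with the median of the 83 genes (solid) and of all 12900 genes tested (dashed). The solid line is lowest for shHIF1A against control (-0.60) and lies at 0.03 for KC7F2 against control.

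In the large subunit 33 of 43 members fell after HIF1A knockdown, and none rose. RPL24, which sits on the face turned towards the small subunit, was at 964, 524 and 415 RPKM in control and 205, 180 and 190 in shHIF1A. The groups did not overlap, and the fold change was the largest of all members (log2 -1.63 ± 0.25 SE, 3.10-fold lower, limma adjusted p = 6.53e-05). RPL12, at the base of the stalk, was at 610, 571 and 486 RPKM in control and 293, 315 and 274 in shHIF1A. Its libraries were tight, and it had the smallest adjusted p of the set (log2 -0.91 ± 0.12, limma adjusted p = 1.42e-05). RPL27, a surface protein of the subunit, had 1870, 1518 and 1231 RPKM in control and 915, 833 and 726 in shHIF1A, again without overlap (log2 -0.89 ± 0.16, limma adjusted p = 0.000366). RPL11 and RPL5, which with the small ribosomal RNA of the large subunit bind the p53 regulator MDM2, differed in their call. RPL11 fell (log2 -0.48 ± 0.15, limma adjusted p = 0.0193), and RPL5 had -0.43 ± 0.18 with an adjusted p of 0.0617. RPL10, among the last proteins to join the subunit, had -0.29 ± 0.12 (adjusted p = 0.059), with all 3 libraries below the controls.

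In the small subunit 18 of 31 fell. RPS2, at the entrance of the mRNA channel, was at 656, 499 and 374 RPKM in control and 298, 234 and 227 in shHIF1A, without overlap (log2 -0.98 ± 0.18). RPS6 had 3226, 2048 and 1425 RPKM in control and 1394, 1291 and 1276 in shHIF1A; control 3 lay close to the knockdown libraries, and the fold change was -0.68 ± 0.23. RPSA, also known as the laminin receptor, fell by 0.53 on the log2 scale. RPS27 did not follow: it was at 22.3, 17.0 and 25.7 RPKM in control and 26.3, 23.7 and 24.4 in shHIF1A. Its fitted change was 0.21 ± 0.28, and 66.5% of its 50-base stretches are shared. Of the stalk proteins, which recruit elongation factors, RPLP0 (log2 -0.58 ± 0.17) and RPLP2 (-0.60 ± 0.22) fell, while RPLP1 had -0.33 ± 0.18 and no call.

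The paralogs went in both directions. RPS27L, a paralog of RPS27 known as a p53 target, was the single member that rose. It was at 154, 118 and 109 RPKM in control and 211, 202 and 178 in shHIF1A, without overlap (log2 0.64 ± 0.15 SE, 1.56-fold higher, limma adjusted p = 0.00257). Only 3.10% of its 50-base stretches are shared with another gene. RPL22L1 (234, 121 and 113 RPKM in control, 87.9, 80.9 and 82.0 in shHIF1A) and its parent RPL22 both fell, by 0.82 and 0.47 on the log2 scale. RPL7L1 fell by 0.78. RPL26L1 (-0.19 ± 0.24) was not called while its parent RPL26 fell by 0.91, and RPL10L (0.18 ± 0.23), an intronless copy of RPL10, was not called.

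Several settings moved the count in this comparison. Without control 1, 33 members and 13.5% of all genes fell, and without shHIF1A 3, 36 members and 13.4% of all genes. With the 3 libraries of high short genes left out 35 members and 13.4% of all genes fell. All 35 were among the 56, the members' median was -0.38, and RPL10L rose beside RPS27L. With only the groups compared in the fit 20 members and 11.6% of all genes fell. With the transcript length trend removed 70 members, among them all 56, and 21.1% of all genes fell. In a fit with median-ratio scaling 19.97% of all genes fell and 21.7% rose, while 72 members fell.

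HIF1A knockdown on top of FOXA1 knockdown shares no library with the comparison above. FOXA1 averaged 64.5 RPKM in shFOXA1 + shHIF1A and 34.1 in shFOXA1, so these groups also differ in FOXA1. The parts of HIF1A and FOXA1 in the results cannot be told apart. Of the 83 members 18 fell and 1 rose in shFOXA1 + shHIF1A against shFOXA1, where 13.5% of all genes fell and 24% rose. The members' median was -0.28 with 73 of 83 negative, and the median of all genes 0.10. All 3 libraries were lower in 41 members, as in 17.8% of all genes. Of the 21 members with under 10% of their 50-base stretches shared, 4 fell and 1 rose (median -0.27). The mitochondrial ribosomal genes had 8 fallen and 6 risen of 77 (median 0.03), and the respiratory chain genes 3 fallen and 4 risen of 79 (median 0.16).

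Of the 18 that fell, 17 had also fallen in control cells, which is 94.4% of the 18 and 30.4% of the 56. Among all genes 62.5% of those that fell on the FOXA1 knockdown also fell in control cells. These shares start from unlike bases, since 67.5% of the members and 16.1% of all genes fell in control cells. The 94.4% is therefore no sign that the members overlapped more closely than other genes. Among the 17 were RPL3, RPL7L1, RPL9, RPL10A, RPL12, RPL17, RPL24, RPL27, RPL36, RPL37, RPL38, RPS2, RPS3A, RPS4X, RPS7 and RPS14, named together because they met both calls. RPS10 (1.97 RPKM on average, 85.6% shared) was the other. Across the 83 members the fold changes of both comparisons had a Pearson r of 0.73 and a Spearman rho of 0.67, and r was 0.60 without RPL24 and RPS27L. Over all 12900 genes r was 0.62 and rho 0.64. These correlations run across genes and describe these libraries.

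RPL24 was at 459, 555 and 462 RPKM in shFOXA1 and 219, 196 and 199 in shFOXA1 + shHIF1A, again the largest fall without overlap (log2 -1.26 ± 0.25 SE, limma adjusted p = 0.00077). RPL12 had 415, 443 and 403 RPKM against 288, 230 and 260 (log2 -0.70 ± 0.12, limma adjusted p = 0.0002). RPL9, of the large subunit, had 14.9, 14.3 and 9.28 against 5.14, 6.37 and 6.22 RPKM (log2 -1.03 ± 0.21), low levels with most of its sequence shared. RPS27L rose here too, from 130, 124 and 115 to 257, 195 and 196 RPKM (log2 0.80 ± 0.15, 1.74-fold, limma adjusted p = 0.000547). RPS27 had 18.9, 22.4 and 27.0 against 11.4, 31.7 and 28.4, so its libraries overlapped. RPL22L1 (78.8, 82.9 and 67.9 against 91.8, 78.9 and 72.1) overlapped as well. Taken relative to the median member of the same library, RPL24 stood 0.93 lower on the log2 scale in shHIF1A than in control and 0.97 lower in shFOXA1 + shHIF1A than in shFOXA1. RPS27L stood 1.34 and 1.08 higher, and neither gene's groups overlapped in either background.

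**Figure D4:**
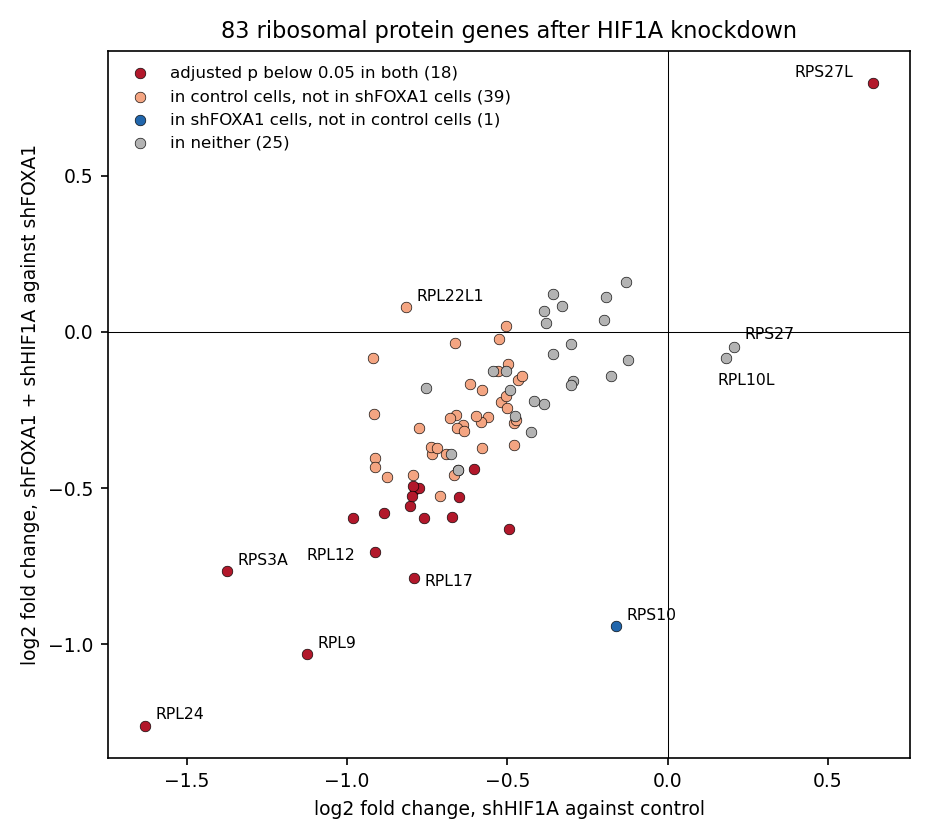
Log2 fold change after HIF1A knockdown in control cells (horizontal) and in FOXA1 knockdown cells (vertical), 1 point per gene, 83 genes, coloured by where the adjusted p was below 0.05. RPL24 lies furthest down on both axes and RPS27L is the single point called higher on both.

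No stalk protein fell on the FOXA1 background, and the large subunit had 10 of 43 and the small subunit 7 of 31 fallen. The count was between 8 and 11 without shFOXA1 1 (11), shFOXA1 2 (10), shFOXA1 + shHIF1A 2 (8) or shFOXA1 + shHIF1A 3 (9), where 11.5, 11.7, 11.95 and 11.7% of all genes fell. Without either of these shFOXA1 + shHIF1A libraries the members thus fell in a smaller share than all genes, and without either of the shFOXA1 libraries in a share near it. It rose to 37 with median-ratio scaling, under which 18.5% of all genes fell and 17.5% rose. With the transcript length trend removed it was 47, where 19.3% of all genes fell. All 18 were among the calls of both. RPL24, RPL12 and RPS27L kept their direction and an adjusted p below 0.05 in both backgrounds under each of 20 alternatives: RPL24 ranged from -1.89 to -1.28 in control cells and -1.40 to -1.17 in FOXA1 knockdown cells, and RPS27L from 0.49 to 0.80 and 0.67 to 0.87.

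**Figure D5:**
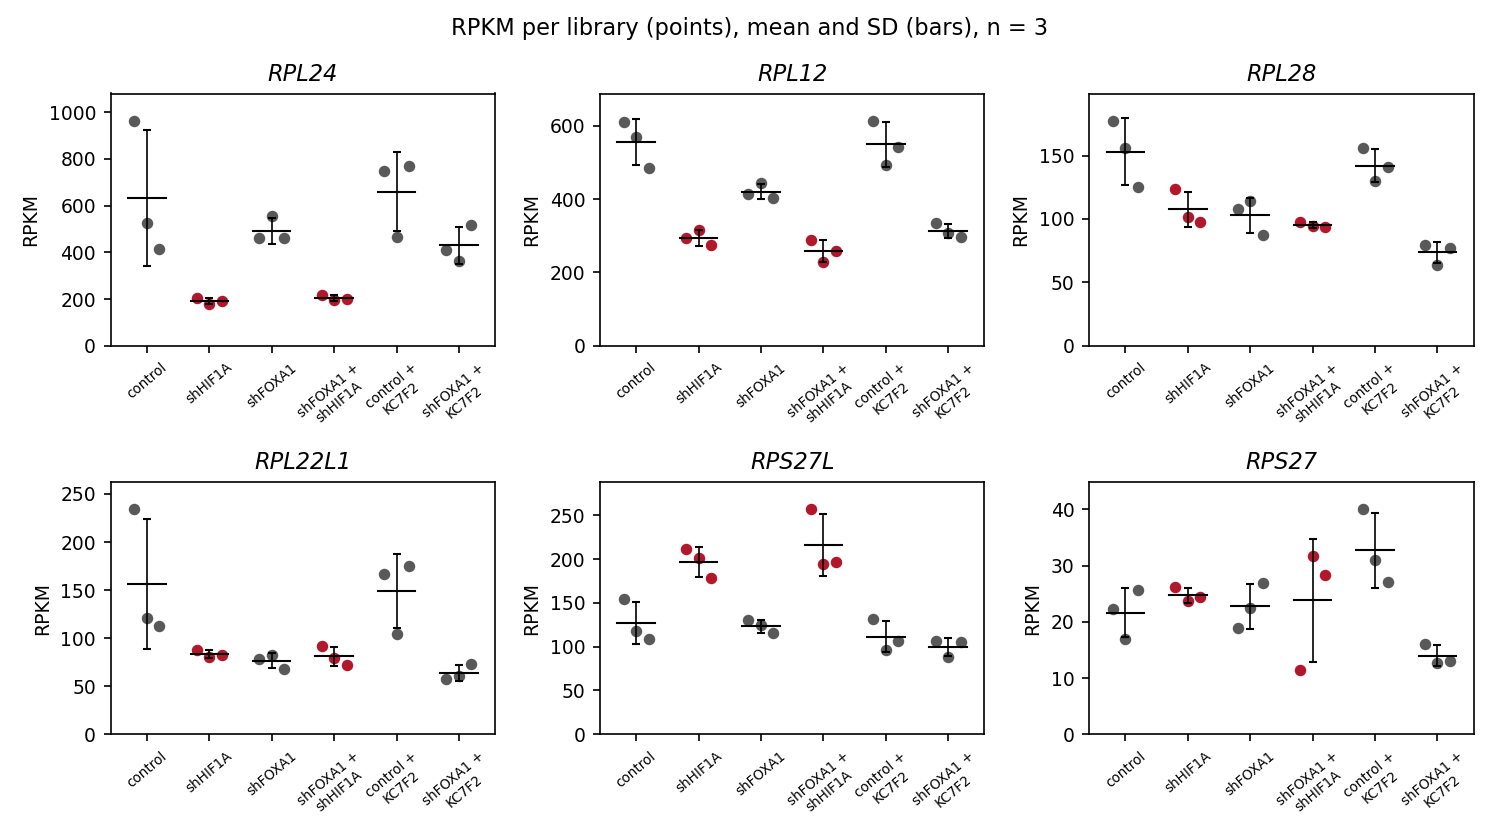
RPKM in each library (points), with the mean and SD (n = 3), of RPL24, RPL12, RPL28, RPL22L1, RPS27L and RPS27 in the 6 groups; libraries with the HIF1A shRNA are red and each axis starts at 0. RPL24 is at or below 219 RPKM in all 6 libraries with the HIF1A shRNA and at or above 362 in the other 12, whereas RPS27L is at or above 178 and at or below 154.

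After FOXA1 knockdown alone a part of the set fell. In shFOXA1 against control, which shares the control libraries with the HIF1A comparison, 18 of 83 members fell and none rose, where 14.6% of all genes fell and 9.52% rose. The median was -0.37 with 81 of 83 negative, against a median of -0.09 over all genes. Mitochondrial ribosomal genes (16 of 77 fallen, median -0.35) and respiratory chain genes (13 of 79, median -0.32) had much the same counts and medians. The difference between these sets was not tested. All 3 libraries were lower in 27 members, as in 20.9% of all genes. An unadjusted limma p below 0.05 was met by 39 of the 83 members and by 4647 of the 12900 genes.

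RPL22L1 fell most, from 234, 121 and 113 RPKM to 78.8, 82.9 and 67.9 (log2 -0.95 ± 0.23 SE, limma adjusted p = 0.00641). No libraries overlapped, and control 1 lay far above the other controls. RPL28, of the large subunit, went from 178, 156 and 125 to 108, 114 and 87.5 RPKM (log2 -0.56 ± 0.14, limma adjusted p = 0.00725). RPL32, also of the large subunit, went from 352, 303 and 264 to 212, 217 and 174 RPKM (log2 -0.61 ± 0.16, limma adjusted p = 0.00908). These 3 genes were not called with only the groups compared in the fit. RPLP1 was the stalk protein called here (log2 -0.61 ± 0.18) and RPLP0 had -0.48 ± 0.17 with an adjusted p of 0.0558. RPL24 (-0.28 ± 0.25) and RPS27L (-0.03 ± 0.15) were not called.

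This count changed with single libraries. It was 3 without control 1, 11 without control 2, 56 without control 3, 8 without shFOXA1 1 and 4 without shFOXA1 3, where 10.7, 10.6, 20.9, 11.5 and 10.3% of all genes fell. Without control 1, shFOXA1 1 or shFOXA1 3 the members therefore fell in a smaller share than all genes. With the 3 libraries of high short genes left out 4 members and 10.4% of all genes fell, and the members' median was -0.18 against -0.06. With only the groups compared no member and 7.24% of all genes fell. With median-ratio scaling 11.5% of all genes fell and 11.9% rose. The sign of the median stayed negative in all alternatives.

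After KC7F2 on control cells none of the 83 members was called, where 0.992% of genes fell and 1.05% rose. No member had an unadjusted limma p below 0.05, against 1537 of the 12900 genes. The fitted log2 changes lay between -0.31 and 0.58 with a median of 0.03 and a median SE of 0.18, and the median turned negative (-0.08 to -0.02) with other scalings, with length trends removed and with the 3 libraries left out, and was 0.24 without control 1. RPL24 had 748, 464 and 767 RPKM with KC7F2 and 964, 524 and 415 without it. RPL12 had 614, 493 and 542 against 610, 571 and 486, and RPS27L 131, 96.3 and 107 against 154, 118 and 109. In all 3 genes the groups overlapped. RPS27 had the smallest adjusted p (0.426), with 40.1, 31.0 and 27.0 RPKM against 22.3, 17.0 and 25.7. Of the 3 libraries with high short genes 2 belong to KC7F2 and 1 to control, and their part in these values was not tested. Whether KC7F2 and the shRNA differed from each other was not tested, and the comparisons share the control libraries.

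KC7F2 on FOXA1 knockdown cells had the members below zero but called none. Of 83 members 79 were negative with a median of -0.28, and the median of all genes was -0.01. The background was 2.37% fallen and 1.71% risen. An unadjusted limma p below 0.05 was met by 16 of the 83 members and by 2097 of the 12900 genes. In 45 members all 3 libraries were lower, as in 14.5% of all genes. RPL12 came closest, from 415, 443 and 403 to 334, 307 and 296 RPKM (log2 -0.43 ± 0.12 SE, limma adjusted p = 0.0536). RPL28 went from 108, 114 and 87.5 to 79.5, 64.1 and 77.2 RPKM (log2 -0.48 ± 0.14, adjusted p = 0.0672). Both had no overlap, while RPL24 (409, 362 and 516 against 459, 555 and 462) and RPL22L1 (57.7, 60.7 and 73.6 against 78.8, 82.9 and 67.9) overlapped. RPS27L was at 106, 88.2 and 105 RPKM against 130, 124 and 115, on the other side from its rise with the HIF1A shRNA and not called (-0.31 ± 0.15). This comparison and the one of shFOXA1 + shHIF1A share the shFOXA1 libraries. Mitochondrial ribosomal genes had a median of -0.05 and respiratory chain genes of -0.13, with none called in either set. Without shFOXA1 3 or without shFOXA1 + KC7F2 2, 1 member fell, where 1.53% of all genes fell in each fit. With the exon length and GC trends removed 8 members and 3.95% of all genes fell.

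No member was called in either interaction. For FOXA1 with HIF1A knockdown, 7.61% of genes were called, and the members' median was 0.30 with 79 of 83 positive, that is, less negative on the FOXA1 background. FOXA1 was depleted less in shFOXA1 + shHIF1A than in shFOXA1, and the part of that difference here cannot be told apart. The median was also 0.30 in mitochondrial ribosomal genes and 0.33 in respiratory chain genes, and 0.085 for the members without control 1. RPL36A (0.83 ± 0.28 SE, limma adjusted p = 0.0921), RPL22L1 (0.90 ± 0.33, 0.116) and RPL23A (0.63 ± 0.26, 0.177) came first. An unadjusted limma p below 0.05 was met by 4 of the 83 members and by 2721 of the 12900 genes. Without control 3, 2 members were called, where 4.47% of all genes were called negative and 4.86% positive. Without shFOXA1 2, 1 member was called, where 3.56% of all genes were called negative and 2.39% positive. For FOXA1 knockdown with KC7F2, 0.0775% of genes were called. The members' median was -0.32 with 80 of 83 negative. Respiratory chain genes had a median of -0.25 (75 of 79 negative) and mitochondrial ribosomal genes -0.21 (68 of 77 negative). Over all genes the median was -0.07, with 8086 of 12900 negative. An unadjusted limma p below 0.05 was met by 6 of the 83 members and by 872 of the 12900 genes. RPS27 came first (-1.26 ± 0.39, limma adjusted p = 0.372), being higher with KC7F2 in control cells and lower with it in shFOXA1 cells (16.1, 12.8 and 13.0 against 18.9, 22.4 and 27.0 RPKM). RPL12 had -0.41 ± 0.17.

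Members were also divided by whether a C followed by at least 4 more C or T stood within 5 bases of an annotated start. This looser rule was met by 79.7% of the 69 genes, 25.2% of all 27305 genes and 33.9% of the 295 other genes of at least 100 RPKM. After HIF1A knockdown in control cells, where 16.1% of all genes fell, the median was -0.58 over 55 members with the run, of which 38 fell. It was -0.66 over 13 without, of which 7 fell. The 13 included the paralogs RPL7L1, RPL10L, RPL26L1 and RPS27L. On FOXA1 knockdown it was -0.29 over the 55 and -0.26 over the 13. A gene counted as having the run if any of its annotated starts had it, and the difference was not tested.

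Genes that work beside the ribosomal proteins were taken from fixed lists, and their counts stand beside the same shares of all genes: 16.1% fallen and 25.9% risen after HIF1A knockdown in control cells, 13.5% and 24% on FOXA1 knockdown, and 14.6% and 9.52% after FOXA1 knockdown alone. Translation factors and other TOP mRNAs had 11 of 21 fallen after HIF1A knockdown in control cells (median -0.35) and 10 fallen and 1 risen on FOXA1 knockdown (median -0.34). NPM1, a nucleolar chaperone, went from 147 ± 36 RPKM (SD, n = 3) in control to 57.5 ± 4.9 in shHIF1A (log2 -1.32 ± 0.15 SE, limma adjusted p = 5.25e-06). EIF3E, a subunit of initiation factor eIF3, fell by 0.90. GNB2L1, the older symbol of the small-subunit scaffold RACK1, fell most clearly on FOXA1 knockdown (log2 -0.80 ± 0.11, limma adjusted p = 3.23e-05). With KC7F2 on FOXA1 knockdown, where 2.37% of all genes fell, 2 of the 21 fell: PABPC1, the poly(A)-binding protein (log2 -0.61 ± 0.09), and the elongation factor EEF1A1 (-0.38 ± 0.09). In shFOXA1 against control 4 fell, near the 14.6% of all genes, with EIF3E (-0.40 ± 0.12) and EIF3L (-0.33 ± 0.11) first. With KC7F2 on control cells none of the 21 was called.

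Ribosome biogenesis genes had 19 of 35 fallen and 1 risen after HIF1A knockdown in control cells (median -0.40), 8 fallen and 1 risen on FOXA1 knockdown (median -0.10) and 12 fallen after FOXA1 knockdown (median -0.34). NOLC1, a nucleolar protein that helps RNA polymerase I, went from 61.7 ± 7.3 RPKM (SD, n = 3) to 28.8 ± 0.95 in shHIF1A and from 46.5 ± 0.51 in shFOXA1 to 24.4 ± 1.4 in shFOXA1 + shHIF1A. RRN3, which brings RNA polymerase I to ribosomal DNA, went from 7.05 ± 0.64 to 2.60 ± 0.49 in shHIF1A (log2 -1.29 ± 0.14). WDR75, of the small-subunit processome, rose on FOXA1 knockdown (log2 0.84 ± 0.10). NOP56, a core protein of the RNA-methylating nucleolar particles, was first after FOXA1 knockdown (-0.52 ± 0.11). No gene of the list was called with KC7F2 in either background.

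Of 21 regulators of TOP mRNAs, 11 fell and 4 rose after HIF1A knockdown in control cells, where 16.1% of all genes fell and 25.9% rose, so that the share that rose was below that of all genes. On FOXA1 knockdown 6 fell and 4 rose, against 13.5% and 24%. After FOXA1 knockdown alone 4 fell and 2 rose, near the 14.6% and 9.52% of all genes. EIF4EBP2, a translation repressor under mTOR, averaged 17.8 ± 3.1 RPKM (SD, n = 3) in control. With the HIF1A shRNA it averaged 8.88 ± 0.99, with the FOXA1 shRNA 26.8 ± 1.6 and with both 8.27 ± 0.91. LARP4, which binds poly(A) and lengthens mRNA life, fell after HIF1A knockdown (log2 -0.89 ± 0.10), and SESN1, an mTOR inhibitor known as a p53 target, rose on FOXA1 knockdown (1.18 ± 0.12). DEPTOR, an inhibitor bound to mTOR, rose from 3.50 ± 0.12 to 13.9 ± 0.86 RPKM in shFOXA1 (log2 1.85 ± 0.18). With KC7F2 none of the 21 was called in either background. FAU and RPL36AL, ribosomal protein genes whose names the rule leaves out, were not called in any of the 5 comparisons.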

How the data were processed

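RNA-seq libraries were made from total RNA with a NEBNext Ultra kit per the labels' protocols, and the submitters' processing notes name STAR and the build hg38. The authors deposited RPKM values; the counting program, its annotation, strand and treatment of multiply mapped reads are not stated there. Of 26475 lines, 32 had no value. From the 26443 genes, the 12900 that reached 1 RPKM in 3 or more of the 18 libraries were fitted as log2(RPKM + 0.5) with limma 3.58.1 (R 4.3.3), 1 model over 6 groups, 12 residual degrees of freedom, eBayes with trend, two-sided, with Benjamini-Hochberg adjustment within each of 7 contrasts and a threshold of 0.05. Fold changes are on that log2 scale, which understates changes of low genes. Library depth was recovered from the value of 1 read: 73.9 to 86.2% of the 138 to 296 low values used per library were whole reads within 2%.

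Transcript lengths and 50-base sharing used GENCODE 29 (on the principal transcript), start sites the RefSeq windows. Members and lists were chosen with earlier results of these data known. Named were the 3 members of smallest adjusted p in each direction and contrast, paralogs with parents, stalk genes, RPSA, RPL5, RPL11, the 3 highest and 3 lowest, and 2 genes per list; RPL9, RPS2, RPS10 and others were named after their values were seen, and Y-linked levels and the results of some other genes are not reported here. On simulated data for shFOXA1 against control over 12900 genes, 5 of 57 changes of 1.25-fold, 16 of 41 of 1.5-fold, 35 of 42 of 2-fold and 57 of 60 of 4-fold were called, with 8 false among 121 calls. Alternatives were pseudocount, filter, scaling, groups fitted, length and GC trends, replicate block and each library left out; equal RPKM sums and transcript length trends were added after seeing the data. Other steps ran in Python 3.11.15 (scipy 1.17.1, numpy 2.4.6, pandas 2.3.3, with figures in matplotlib 3.10.9).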

Additional observations from a re-analysis of the deposited data

How the results depend on the processing

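The members' medians kept their sign under every alternative run, except in KC7F2 against control. In shHIF1A against control the count of falls was 20 with only the groups compared and 35 (median -0.38, 2 risen) with the 3 libraries of high short genes left out, quantile normalisation gave a median of -0.28 and 2 risen, and leaving out each library gave 33 to 71 falls and medians of -0.73 to -0.38. Of all genes 11.6% fell with only the groups compared, 13.4% with the 3 libraries left out and 13.4 to 17.9% leaving out each library. In shFOXA1 against control 6 of 86 fell with no filter, 28 with the replicate block, 0 with only the groups compared and 4 with the 3 libraries left out, 1 rose with quantile normalisation, and leaving out each library gave 3 to 56. Of all genes 7.83% fell with no filter, 15.8% with the replicate block, 7.24% with only the groups compared and 10.4% with the 3 libraries left out. Leaving out each library gave 10.3 to 20.9%, and with quantile normalisation 11.9% of all genes rose. In shFOXA1 + shHIF1A against shFOXA1 the falls were 9 (no filter), 37 (median-ratio scaling), 31 (quantile normalisation, 4 risen), 36 (equal RPKM sums), 44 and 46 (exon length, with GC), 47 and 49 (transcript length, with GC), 29 (groups compared), 32 (3 libraries left out) and 8 to 17 (leaving out each library). In the same order, 8.34, 18.5, 17.8, 13.3, 19.7, 20.5, 19.3, 20.4, 12.4, 14.5 and 11.5 to 12.7% of all genes fell. In shFOXA1 + KC7F2 against shFOXA1 the falls were 1 (at least 5 RPKM), 2 (median-ratio scaling), 2 (quantile normalisation), 3 (equal RPKM sums), 2 (replicate block), 6 and 8 (exon length, with GC), 3 and 5 (transcript length, with GC), 4 (groups compared), 5 (3 libraries left out) and 0 to 1 (leaving out each library). In the same order, 2.60, 2.81, 2.88, 1.66, 2.53, 3.40, 3.95, 3.15, 3.67, 2.16, 2.83 and 1.40 to 1.60% of all genes fell. The HIF1A interaction called 3 members with quantile normalisation and 0 to 2 leaving out each library. Of all genes 5.16% were called negative and 3.74% positive with quantile normalisation. Leaving out each library gave 3.17 to 4.47% negative and 2.14 to 4.86% positive. The members' medians were 0.085 to 0.47 leaving out each library and 0.085 with the 3 libraries of high short genes left out. The KC7F2 interaction medians ran from -0.53 to -0.15, and the KC7F2 medians from -0.12 to 0.24. The causes were not tested, except that a fit of 2 groups or fewer libraries has fewer degrees of freedom. With quantile normalisation RPL3 turned to 0.33 in shFOXA1 against control, and in shHIF1A against control RPL3 to 0.085 and RPL11 to 0.029. Equal RPKM sums moved the median of all genes in shFOXA1 against control from -0.09 to 0.04 and the members' to -0.22. Same-numbered libraries did not pair (mean correlation of deviations 0.02, range -0.21 to 0.25), so the replicate block is a check only. It gave 62 falls in shHIF1A against control and 21 in shFOXA1 + shHIF1A against shFOXA1, where 16.5 and 13.8% of all genes fell. At depths of 3.26 to 12.1 (1e6 reads), members below 2 RPKM rest on few reads.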
